A study of Danio rerio with 12 samples.

Results

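Open chromatin regions in the outermost megabase of zebrafish chromosomes were followed in embryos exposed to TDCIPP or DAC. The regions were chosen by position alone: those on chromosomes 1 to 25, without chromosome 4, that ended at or below coordinate 1000000 or started within 1000000 bp of the largest region end found on their chromosome over the 2 deposited tables. Of 80059 regions in all, 5308 met this rule, namely 2089 of 35040 for TDCIPP and 3219 of 45019 for DAC, and they came from 48 ends of 24 chromosomes. The regions of the same chromosomes farther in, 25472 for TDCIPP and 32778 for DAC, are called inner regions and served for comparison. Coordinates are on GRCz11. The end at coordinate 1 is called the low end and the other the high end. The high end is placed by the last open region, because chromosome lengths were not used here.

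Chromosome ends carry telomeres, and the sequence next to them is often repeated or duplicated between chromosomes. In several organisms chromatin close to telomeres can silence genes placed there. The title of the series names H2A.Z, a histone variant which is known from the nucleosomes flanking many open promoters, and the release of repeats from silencing, so that ends are a place where such changes might be looked for. TDCIPP is an organophosphate flame retardant, and DAC (decitabine) is a deoxycytidine analog that blocks DNA methyltransferases.

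The assay was ATAC-seq, where a transposase cuts exposed DNA, in whole wild-type AB/Tuebingen embryos aged 6 hours post fertilization, with about 100000 cells per library. The 4 groups of 3 libraries were 3.12 µM TDCIPP with DMSO controls of its own, and 100 µM DAC with DMSO controls of its own, the controls receiving 0.1% DMSO. The labels do not say whether libraries came from separate clutches, so the deposited p-values measure only a spread between libraries that may be technical. Because whole embryos were used, opening in fewer cells and less opening per cell cannot be told apart.

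Each table gives a level per region, which is log2 of the normalized reads averaged over libraries, for both groups together and for each group, but no value of a single library. A fold is the treated minus the DMSO level on the log2 scale, and is positive where the treated embryos were more accessible. Replicate spread is therefore seen only in the deposited p-values, and comparisons of end with inner regions are descriptions without a test. The median level of end regions was 6.71 (105 normalized reads) for TDCIPP and 4.45 (21.9 reads) for DAC, by the authors' deposited tables. Normalized reads per region were thus fewer for DAC, but depth per library and the normalization are not known.

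Open regions were crowded at chromosome ends in both tables, and the crowding increased toward the tip. The outermost megabase held 43.5 regions per Mb in the TDCIPP table, against 20.9 per Mb farther in, a ratio of 2.08. In the DAC table it held 67.1 per Mb against 26.9, a ratio of 2.49. All 48 ends were denser than the inner part of their own chromosome in both tables. The lowest ratio after TDCIPP was 1.14, at the low end of chromosome 24, and the highest 3.06, at the low end of chromosome 14. For DAC the ratios ran from 1.55 to 3.50, with the high end of chromosome 12 at the top. No end thus lacked the excess, though its size varied from slight to large.

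Within the megabase the density dropped with distance from the tip. In the TDCIPP table the first 0.1 Mb held 69.2 regions per Mb, the next 57.1, and the last before 1 Mb held 26.7. From 1 to 2 Mb there were 26.3 per Mb, and beyond 10 Mb 21.0. The DAC table went from 91.7 per Mb in the first 0.1 Mb to 46.3 in the last, with 41.4 from 1 to 2 Mb and 26.3 beyond 10 Mb. DAC regions were therefore still dense past the 1-Mb line. At high ends the tip is by the rule the end of the last region, so the first 0.1 Mb there cannot be empty in both tables. The steps of 0.1 Mb are not given by side here. Over the whole megabase, low ends held 1041 regions for TDCIPP and 1570 for DAC, and high ends 1048 and 1649. The median gap to the nearest other region was 7.35 kb at ends and 10.6 kb among inner regions of the TDCIPP table, and 5.90 and 9.23 kb in the DAC table. The handling of reads with several matches is not stated in the labels, and its part in these densities was not tested.

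**Figure D1:**
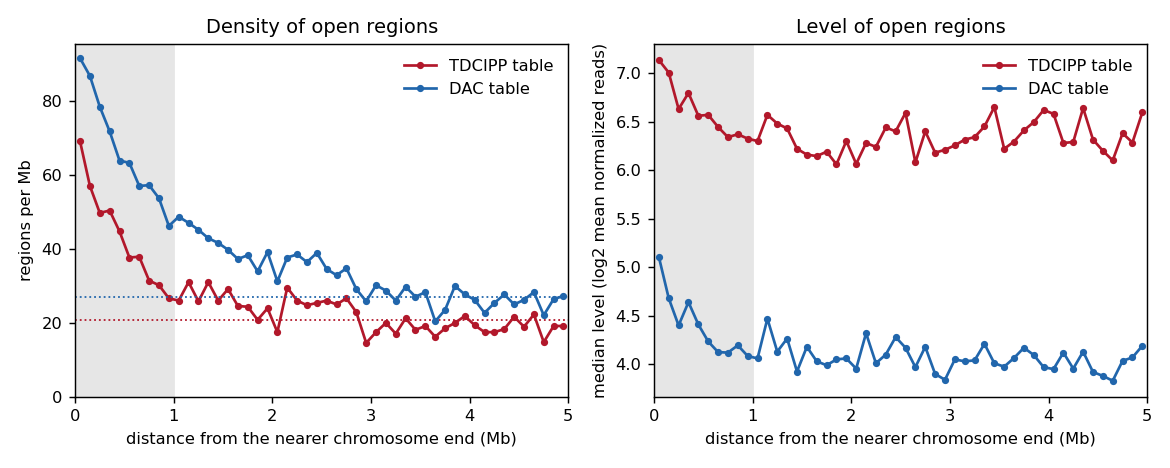
Regions per Mb (left) and median level in log2 mean normalized reads (right) in steps of 0.1 Mb from the nearer chromosome end, for the 24 chromosomes, with the outermost megabase shaded; dotted lines give the mean density of inner regions (20.9 and 26.9 per Mb). Both tables peak in the first 0.1 Mb, at 69.2 regions per Mb for TDCIPP and 91.7 for DAC. Low and high ends are pooled, and high ends are placed by the last region.

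End regions were also wider and more open. Their median width was 1267 bp against 1168 bp for TDCIPP and 1210 bp against 1105 bp for DAC. The width differences were smaller at like level, where inner regions had medians of 1229 bp for TDCIPP and 1163 bp for DAC. Together, open regions covered 6.16% of the bases of the outermost megabase in the TDCIPP table and 2.77% farther in, and 9.20% against 3.55% in the DAC table. The median level was 6.71 at ends and 6.39 at inner regions in the authors' deposited table for TDCIPP, and 4.45 and 4.15 in that for DAC. Per kb of region, the median log2 level was 6.40 at ends against 6.16 for TDCIPP and 4.14 against 3.92 for DAC. Like density, level was highest at the tip. It was 7.13 in the first 0.1 Mb and 6.33 in the last of the authors' deposited table for TDCIPP, and 5.11 and 4.08 in that for DAC.

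The 48 ends differed from each other in number of regions. In the TDCIPP table they held 22 to 67 regions with a median of 42.5. The fullest were the low ends of chromosomes 22 (67 regions) and 21 (62) and the high end of chromosome 15 (60). The emptiest were the low end of chromosome 24 (22 regions) and the high ends of chromosomes 9 (24) and 18 (27). In the DAC table the number ran from 44 to 98, with the high end of chromosome 15 (98), the low end of chromosome 22 (88) and the high end of chromosome 6 (83) at the top. At the bottom were the low ends of chromosomes 24 (44) and 20 (45), and the low end of chromosome 3 and the high end of chromosome 14 with 48 each. Ends full in one table tended to be full in the other (Pearson r = 0.717, Spearman rho = 0.700 over 48 ends, a description, since both tables share the genome and the stage).

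The outermost region of low ends lay near coordinate 1. In the TDCIPP table its distance was between 0.787 and 48.4 kb over the 24 low ends, with a median of 5.80 kb, and for DAC between 0.419 and 15.1 kb, with a median of 2.03 kb. For high ends no such distance is given, since the tip there is by the rule the end of the last region of either table. In the authors' deposited table for TDCIPP the outermost regions had levels from 5.04 to 14.59 and folds from -0.63 to 0.37, with 20 of 48 folds positive and 26 negative. For DAC, 26 of the 48 outermost regions had a positive and 22 a negative fold, from -0.71 to 0.64, in the authors' deposited table. Neither compound thus gave the last region of the chromosomes a common direction.

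A handful of end regions had very high levels. In the authors' deposited table for TDCIPP the highest was chromosome 5 at 822561 to 826892, with a level of 14.96 after TDCIPP and 15.16 in DMSO (adjusted p = 0.607). On chromosome 5 it stood beside 833912 to 836653, at 14.10 and 14.32, and 830907 to 833042, at 13.50 and 13.52, both from the authors' deposited table. At the tip of chromosome 7, the region at 2596 to 6346 had 14.48 after TDCIPP and 14.68 in DMSO, and its neighbour at 7007 to 10064 had 13.67 and 13.83, in the authors' deposited table. None of these 5 was called. In the authors' deposited table for DAC the same places led: 13.60 with DAC and 13.40 in DMSO at chromosome 7 from 2229 to 8916, and 13.43 and 13.13 at chromosome 5 from 822360 to 827348. Next came chromosome 5 at 830958 to 836686 (13.13 and 12.94), the high end of chromosome 20 at 55166667 to 55169825 (11.32 and 11.51) and chromosome 5 at 819260 to 821378 (11.29 and 11.30) in the authors' deposited table for DAC. The 5 highest regions together took 19.0% of all reads in end regions for TDCIPP and 22.2% for DAC.

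After TDCIPP, 31 end regions were called at an adjusted p under 0.05, and 27 of them fell while 4 rose. The 31 were 1.48% of the 2089 end regions, where 1.28% of all 35040 regions were called. The 27 falls were 1.29% of end regions against 0.916% of all regions, and the 4 rises 0.191% against 0.362%. Rises thus made up 12.9% of the calls at ends (95% Clopper-Pearson interval 3.63 to 29.8, counting error only) and 28.0% of the 336 calls at inner regions (23.2 to 33.1). Inner falls had a median level of 8.63 and inner rises of 7.11 in the authors' deposited table. End regions had higher levels than inner ones. With inner regions weighted to the same levels over 10 classes, 1.26% of them fell and 0.416% rose. The share of falls at ends, 1.29%, was close to this. The share of rises, 0.191%, was lower but rests on 4 regions. Its 95% Clopper-Pearson interval, counting error only, was 0.0522 to 0.490, which holds both 0.416% and 0.362%. The part of level in the direction of calls was not tested. No region with a level under 5.71 had an adjusted p below 1, and among regions at or above that level 1.84% of end and 1.80% of inner regions were called. At an unadjusted p under 0.05 there were 208 end regions (9.96%, against 9.93% of all regions). Of these, 72 had a positive fold (3.45% against 4.77%) and 136 a negative one (6.51% against 5.16%). Inner regions at like level had shares of 5.04% with a positive and 6.14% with a negative fold. The share of negative folds at ends was thus closer to that of inner regions at like level than to that of all regions.

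The called regions were few at any one end. The 27 falls lay at 13 of the 48 ends, the 4 rises at 4, and 31 ends had no call. High ends held 18 falls and 1 rise, low ends 9 falls and 3 rises. The outer 0.5 Mb held 28 of the 31 calls, 2.15% of its 1302 regions, and the remaining 0.5 Mb held 3, or 0.381% of 787. Over all 35040 regions, 1.28% were called. The outer regions had higher levels, with a median of 6.895 against 6.44 in the authors' deposited table. With ends set at 0.5 Mb, the share called was 0.282 points above that of regions farther in at like level. Whether calls gather toward the tip was not tested. By steps of 0.1 Mb the falls were most frequent from 0.4 to 0.5 Mb, with 10, of which 6 belonged to one place on chromosome 7. The first 0.1 Mb, where regions were densest, held 2 falls and 1 rise.

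**Figure D2:**
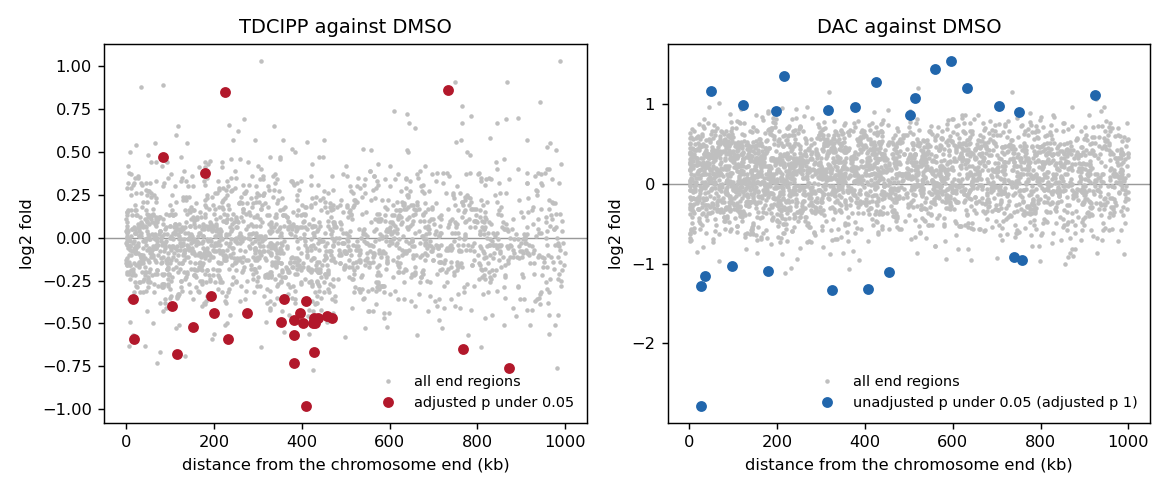
Log2 fold of every end region against its distance from the chromosome end in kb, for TDCIPP (left, 2089 regions) and DAC (right, 3219 regions), on different fold axes; coloured points are the 31 called regions for TDCIPP, and for DAC the 25 regions with an unadjusted p under 0.05, none of which was called. Most called TDCIPP regions lie below 0 and within 0.5 Mb of the end, where 1302 of the 2089 regions lie.

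The smallest adjusted p of the whole TDCIPP table belonged to an end region, although the largest falls by size lay farther in, where called folds reached -1.07. On chromosome 10, the region at 44994572 to 44997297, 409 kb from the high end, had a level of 9.75 in DMSO and 8.77 after TDCIPP, a fold of -0.98 with an adjusted p of 1.32e-09, by the authors' deposited table. It had no fellow, since it was the one called region of that end. The median fold of the 55 regions there was nevertheless -0.15, with 23.6% of folds positive, in the authors' deposited table.

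Further single falls lay at both kinds of end. At the high end of chromosome 2, 58848503 to 58850787 went from 9.01 in DMSO to 8.36 (adjusted p = 0.000117), and at the high end of chromosome 9, 56224361 to 56225614 went from 8.27 to 7.67 (0.00489), by the authors' deposited table. The high end of chromosome 24 held 2 falls, 41788587 to 41790139 from 7.07 to 6.35 (0.0126) and 42054284 to 42055598 from 7.42 to 6.74 (0.00911), by the authors' deposited table. These 2 lay 382 and 116 kb from the end, too far apart to form one place. At the high end of chromosome 6, 59840909 to 59842086 went from 6.90 to 6.23 (adjusted p = 0.0148), and on chromosome 19, 47562251 to 47563513 went from 7.06 to 6.30 (0.0138), by the authors' deposited table.

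Low ends held single falls too. On chromosome 12 the region at 16129 to 17877, 17.9 kb from the end, went from 8.83 in DMSO to 8.24 after TDCIPP with an adjusted p of 0.00479, by the authors' deposited table. On chromosome 3, 151306 to 152181 went from 7.62 to 7.10 (adjusted p = 0.0335), and on chromosome 25, 381330 to 382484 went from 7.84 to 7.27 (0.0233), by the authors' deposited table. These low-end falls had folds of -0.59, -0.52 and -0.57 in the authors' deposited table, all smaller in size than that of chromosome 10.

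Falls at ends were partly clustered. Falls within 50 kb of each other were joined, which turned 27 into 18 places, 14 of them with 1 fall. The largest was at the high end of chromosome 7, where 6 of the 8 regions between 73813205 and 73859486 fell, with levels from 11.66 to 13.33 and folds from -0.50 to -0.46 in the authors' deposited table. Its 2 most negative regions were 73857267 to 73859486, at 12.65 in DMSO and 12.15 after TDCIPP, and 73850922 to 73852761, at 12.20 and 11.70, in the authors' deposited table. The folds of these 6 regions were thus nearly equal. Chromosome 19 held 3 falls within 16.1 kb (48023579 to 48039710, median fold -0.44), chromosome 1 held 2 within 10.9 kb (59215543 to 59226453, -0.42) and chromosome 25 held 2 within 11.6 kb (189022 to 200593, -0.39), by the authors' deposited table. Without the place on chromosome 7, 25 calls were left, of which 16.0% rose. Over all 27 falls, the share with a neighbouring fall was 48.1% at ends, and it was 45.0% among inner regions. The end share includes the 6 falls of the place on chromosome 7, and the largest inner place held 12 falls. Regions were also denser at ends, with 43.5 per Mb against 20.9, and the part of density in these shares was not tested.

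The 4 rises lay alone, at 4 ends. The largest was on chromosome 16 at 54531303 to 54532428, 734 kb from the high end, with 5.60 in DMSO and 6.46 after TDCIPP (adjusted p = 0.0148), by the authors' deposited table. The other 3 were at low ends. On chromosome 23, 225360 to 226086 went from 5.83 to 6.68 (adjusted p = 0.00747), and on chromosome 24, 81972 to 84732 went from 8.13 to 8.60 (0.00695), by the authors' deposited table. The last, 178861 to 180441 of chromosome 9, went from 8.34 to 8.71 with an adjusted p of 0.0366, by the authors' deposited table. Chromosome 24 therefore had a rise at its low end and falls at its high end.

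Just outside the threshold the directions were mixed. The next 5 end regions had adjusted p-values from 0.0581 to 0.0636 in the authors' deposited table. Positive folds of 0.72 and 0.47 stood at 637487 to 638976 of chromosome 2 and at 51853920 to 51855247 of chromosome 13, by the authors' deposited table. Negative folds of -0.34, -0.63 and -0.36 stood at 48119326 to 48121316 of chromosome 19, 52608556 to 52611582 of chromosome 14 and 148751 to 151307 of chromosome 15, by the authors' deposited table.

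**Figure D3:**
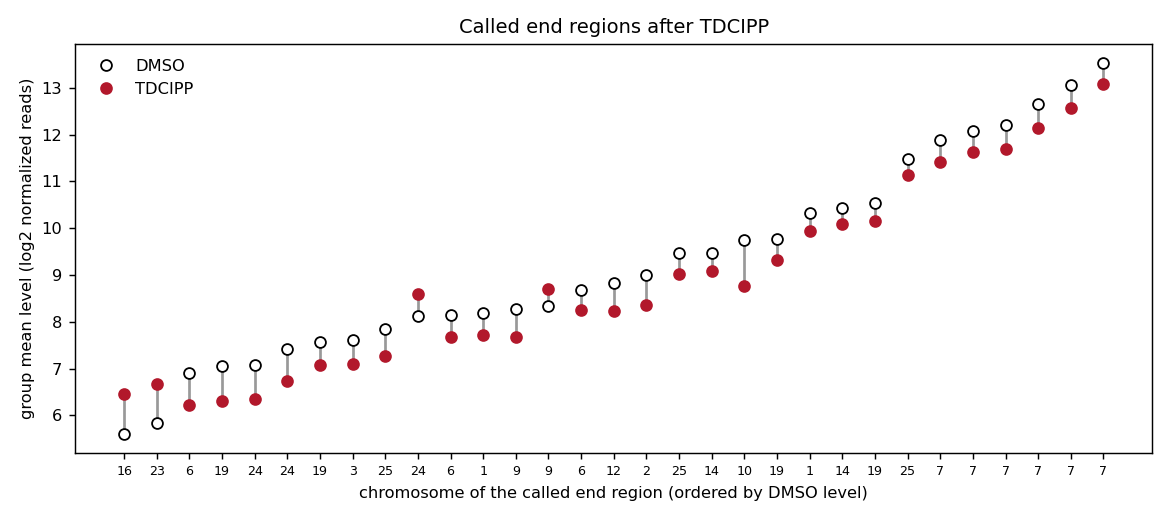
Group mean level in log2 normalized reads of the 31 called end regions in DMSO (open) and after TDCIPP (filled), ordered by DMSO level, with the chromosome below each; single libraries are not in the tables, so no error bars are drawn. In 27 regions the TDCIPP point is lower and in 4 it is higher, and the 6 regions of the place on chromosome 7 stand at the upper end.

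Over all 2089 end regions, called or not, folds after TDCIPP leaned slightly below 0. The median fold was -0.03 (95% interval from order statistics -0.04 to -0.02, counting error only) against 0.01 over the whole of the authors' deposited table. The median fold of inner regions at like level was 0. The interval treats regions as independent and does not hold the spread between libraries. Of the end regions, 922 (44.1%) had a positive and 1138 a negative fold, while 48.7% of inner regions at like level were positive. In 9 of 10 level classes the end median was lower than the inner median, by at most 0.06, and in the other class it was equal, by the authors' deposited table. The share of positive folds was lower at ends in 7 of the 10 classes. In the highest level class, 21.0% of 291 end regions and 31.7% of 2477 inner regions had a positive fold. In the fifth class the shares were 44.0% and 53.9%, and in the lowest 58.0% and 59.5%. In the second class the order was the other way, with 62.0% at ends and 58.0% farther in, as it was by under 1 percentage point in the third and seventh.

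High ends leaned more than low ends. Of 24 high ends, 21 had a median below that of the inner regions of their own chromosome at like level and 3 a median above it, while low ends were split 12 to 11, with 1 equal. The median difference was -0.035 over high ends and -0.0025 over low ends. Some of the 21 were small, such as -0.005 on chromosome 22 and -0.01 on chromosome 6. Positive folds made up 41.2% of the 1048 regions of high ends and 47.1% of the 1041 regions of low ends, with 48.9% and 48.6% at inner regions of like level. The 3 lowest were the high ends of chromosomes 9, 14 and 10, with end minus inner differences of -0.18, -0.17 and -0.15 computed from the authors' deposited table. The high ends of chromosomes 19 (-0.125) and 24 (-0.12) came next by the same difference. The highest difference was at the low end of chromosome 23, with 0.09 computed from the authors' deposited table, then the high end of chromosome 25 with 0.08. Both ends of a chromosome were below the inner regions on 10 chromosomes and above on 1, so ends of one chromosome often differed. The difference between high and low ends was not tested.

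The lean after TDCIPP was not limited to the outermost megabase. Regions 1 to 10 Mb from an end had 46.8% positive folds, and 44.5% when weighted to the levels of end regions, close to the 44.1% of end regions themselves. Regions beyond 10 Mb had 52.7%, and 51.0% at like level. Called falls made up 1.29% of end regions, 2.08% of regions from 1 to 10 Mb at like level and 0.828% beyond 10 Mb at like level. Without weighting, the share from 1 to 10 Mb was 1.54%. Of the end falls, 25 lay among the 1302 regions of the outer 0.5 Mb and 2 among the 787 of the remaining 0.5 Mb. Called rises made up 0.191%, 0.189% and 0.539%. End regions were thus like the wider distal zone in the direction of folds, and differed in direction mainly from the central part of chromosomes. Over the whole outermost megabase their share of falls was lower than that of the distal zone at like level, which was not tested.

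**Figure D4:**
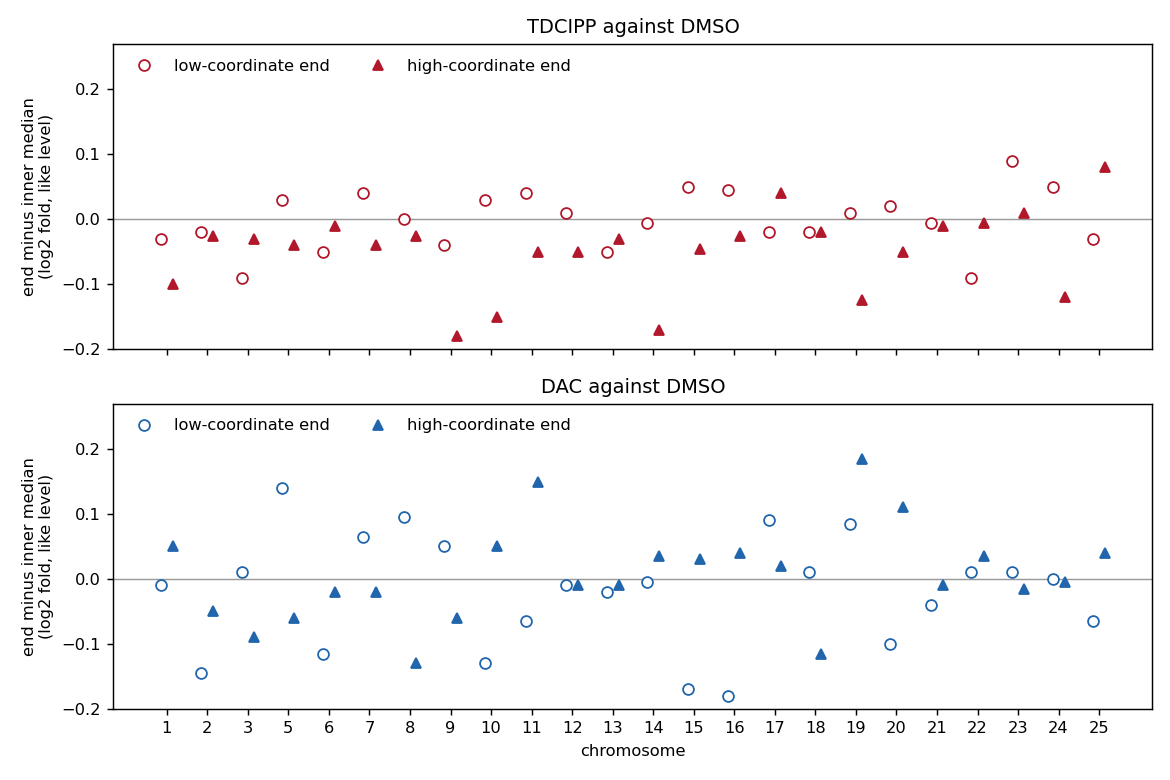
Median log2 fold of each of the 48 chromosome ends minus that of the inner regions of its own chromosome at like level, for TDCIPP (top) and DAC (bottom), open circles for low ends and filled triangles for high ends. With TDCIPP 21 of 24 high ends lie below 0, and with DAC the ends fall on both sides.

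After DAC no end region was called, as the adjusted p was 1 at all 3219 in the authors' deposited table. Among all 45019 regions for DAC, 0 were called too, so the absence of calls was not particular to ends. At an unadjusted p under 0.05 there were 25 end regions (0.777%), where 1.01% of all regions of the DAC table reached it. Of the 25, 15 had a positive fold (0.466% of end regions, 0.755% of all regions) and 10 a negative fold (0.311% and 0.251%). At an unadjusted p under 0.01 there were 3, or 0.0932%, against 0.116% of all. The 95% Clopper-Pearson intervals of the end shares, counting error only, were 0.261 to 0.767 for positive and 0.149 to 0.571 for negative folds. Inner regions at like level had shares of 0.590% and 0.237%. The intervals treat regions as independent, so these shares are set side by side without a test. The regions given next did not pass.

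With a positive fold, the smallest p belonged to chromosome 5 at 595261 to 596214, at 3.39 in DMSO and 4.93 with DAC (unadjusted p = 0.00181), by the authors' deposited table. Next, 558483 to 560255 of chromosome 14 had 4.27 and 5.71 (0.00294), and chromosome 9 at 56240240 to 56240921 had 2.13 and 3.49 (0.0106), by the authors' deposited table. The next had folds of 1.17 (chromosome 10, 45355074 to 45356180), 0.98 (chromosome 2, 58911208 to 58913261) and 1.11 (chromosome 9, 924160 to 924833), by the authors' deposited table. Apart from that of chromosome 14, the levels of these 6 were under 5 in both groups, where normalized reads are few.

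With a negative fold, the smallest p belonged to chromosome 24. At its high end, 27.2 kb from the tip, the region at 42143266 to 42146469 had 8.45 in DMSO and 5.66 with DAC, a fold of -2.78 with an unadjusted p of 0.00888, by the authors' deposited table. At its low end, 23497 to 25475 had 4.23 and 2.94 (unadjusted p = 0.0173) and 33120 to 35249 had 4.50 and 3.35 (0.0257), by the authors' deposited table. The partner of the high-end region among the TDCIPP regions had a DMSO level of 4.54, by the authors' deposited table. All 3 DAC regions lay at most 35.2 kb from a tip. They are members of a list of 6 that did not pass, and no pattern is read from them. The high end of chromosome 3 held 2 more, 62531872 to 62532603 (fold -1.03) and 62449468 to 62450885 (-1.09), and chromosome 10 held 453850 to 455092 (-1.11), by the authors' deposited table.

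Over the whole outermost megabase the DAC folds were close to those of inner regions of like level. The median fold was 0.13 at ends (95% interval from order statistics 0.11 to 0.14, counting error only), 0.09 at inner regions and 0.13 at inner regions of like level, by the authors' deposited table. Positive folds made up 62.1% of end regions, 58.5% of inner regions and 62.7% of inner regions of like level. The end median was lower in 5 of the 10 level classes and higher in 5. In the lowest class it was -0.08 at ends and -0.18 farther in, and in the highest 0.39 and 0.34, by the authors' deposited table. Of the 48 ends, 26 had a median below the inner regions of their own chromosome at like level, 21 above and 1 equal, with differences from -0.18 at the low end of chromosome 16 to 0.19 at the high end of chromosome 19.

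**Figure D5:**
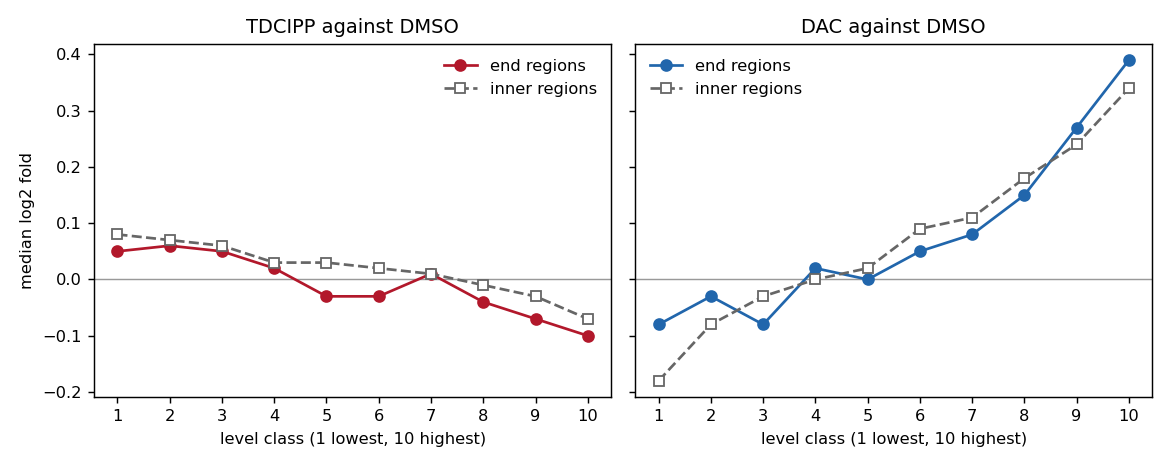
Median log2 fold in 10 level classes of about equal size, from 1 (lowest) to 10 (highest), for end regions (filled) and inner regions (open) with TDCIPP (left) and DAC (right). Medians go down with level after TDCIPP, from 0.05 to -0.10 at ends, and up after DAC, from -0.08 to 0.39, and the end medians lie at or below the inner ones in all 10 classes for TDCIPP.

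The 2 tables could be set side by side at 1651 end regions that shared at least 1 base. These were 79.0% of the TDCIPP and 51.3% of the DAC end regions. Among inner regions the shares paired were 72.3% for TDCIPP and 56.2% for DAC. Each compound had control libraries of its own. Across the end pairs, which are not independent, the folds had Pearson r = -0.197 and Spearman rho = -0.183, with r = -0.166 over 18413 inner pairs. Pearson r was below 0 on 21 of 24 chromosomes, each with 51 to 90 pairs, and ran from -0.503 to 0.054. A negative TDCIPP with a positive DAC fold was the most frequent combination, at 754 pairs (45.7%), and 542 pairs (32.8%) were positive in both. Among inner pairs these were 39.4% and 33.2%. Since folds varied with level in opposite ways in the 2 tables, level is shared by these points, and its part was not tested.

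Called TDCIPP falls at ends had positive DAC folds without exception among those that could be paired. All 25 paired falls had a DAC fold above 0, from 0.08 to 0.96 with a median of 0.34, by the authors' deposited tables, and 202 of 213 paired inner falls had one. None of these DAC folds passed its test. For the fall of chromosome 10 the DAC levels were 6.70 in DMSO and 7.04 with DAC, and for that of chromosome 12 they were 7.37 and 7.95, by the authors' deposited table. At the place on chromosome 7 all 7 DAC regions were positive, with folds from 0.17 to 0.50, by the authors' deposited table. Of the 4 rises, 2 had a partner, with DAC folds of 0.03 and 0.16 by the authors' deposited table. Positive DAC folds were common at high levels in any case, at 92.8% of end regions and 89.2% of inner regions in the highest level class.

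Regions left without a partner had lower levels. Each region was paired once, so that one without a partner can still overlap a region of the other table, as the region at 830907 to 833042 of chromosome 5 does. The 438 TDCIPP end regions without a DAC partner had a median level of 5.81, against 7.02 for those with one, by the authors' deposited table. They were 21.0% of TDCIPP end regions, while 27.7% of TDCIPP inner regions had no partner, with median levels of 5.64 against 6.76. The 1567 DAC end regions without a TDCIPP partner, 48.7% of all, had a median level of 3.84 against 5.22, by the authors' deposited table. Their median DAC fold was -0.05, and 43.6% were positive, while those with a partner had a median of 0.27 and 79.7% positive, by the authors' deposited table. A split of the same direction was present farther in. There 43.8% of DAC regions had no partner, with a median level of 3.63 against 4.62. The median fold of these inner regions was -0.10 with 38.4% positive, against 0.21 and 74.2% positive with a partner.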

How the data were processed

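ATAC-seq libraries of whole embryos, 12 in 4 groups of 3, were processed by the submitters with Bowtie2, Picard, MACS2, deepTools and DiffBind on GRCz11, per the submitters' processing notes (versions, read shifting, duplicate handling and normalization: not given in sources used here). The deposited tables hold, per the file headers, log2 levels, a log2 fold, a p-value and an adjusted p-value per consensus region, with 0 columns of single libraries. Depth per library is unknown. The DAC table's header names its treated group 5AzaC and is called DAC after the labels.

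The call was the deposited adjusted p under 0.05 over the whole table. Width was end minus start plus 1, and distance ran from coordinate 1 to a region's end or from its start to the last region end. Inner regions were weighted to the end regions over 10 classes of level. Regions of the tables were paired by at least 1 shared base, each used once, largest overlap first. Intervals cover counting error only, treat regions as independent and do not hold the spread between libraries. Python 3.11.15, pandas 2.3.3 and scipy 1.17.1 were used, and the weighting was tested on simulated data. Named were, by rule, up to 12 largest called rises and falls, the next 5 by adjusted p, the 6 smallest DAC p-values per direction, the 5 highest levels, the fullest and emptiest 3 ends, and the outermost regions as ranges; regions inside the dense places were named beside them as places. Members and lists were chosen with earlier results of these data known. No genome or annotation of GRCz11 was used, so genes, repeats and sequences are not analysed here.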

Additional observations from a re-analysis of the deposited data

How the results depend on the processing

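No paired analysis was possible because each deposited column is a group mean, so that neither a replicate block nor the omission of a library could be fitted. The 31 TDCIPP calls went to 53 with ends of 2 Mb and to 14 at an adjusted p under 0.01, and stayed within 1.5 times otherwise. The share of rises among these calls, 12.9%, went to 6.90% at or above the median level and 7.55% with ends of 2 Mb, and to 18.2% with calls within 50 kb joined, all within its counting interval of 3.63 to 29.8. The percentage called at ends minus that at like level, -0.191 points, had no stable sign: it was 0.282 with ends of 0.5 Mb, 0.118 with ends of 2 Mb, 0.165 without matching on level and 0.187 at high ends, and -0.784 against regions 1 to 10 Mb from an end. The median TDCIPP fold difference of -0.03 was -0.045 at high ends and -0.01 against regions 1 to 10 Mb from an end. The share of positive TDCIPP folds, -4.60 points from like level, was -1.50 at low ends, -7.70 at high ends and -0.379 against 1 to 10 Mb. The 25 DAC regions at an unadjusted p under 0.05 became 15 and 45 with ends of 0.5 and 2 Mb, 13 at or above the median level and 3 at p under 0.01. The DAC median difference of 0 was -0.03 with ends of 0.5 Mb, 0.04 without matching, -0.04 against 1 to 10 Mb and 0.02 in regions of both tables. The share of positive DAC folds, -0.525 points, was -3.01 with ends of 0.5 Mb, -3.76 against 1 to 10 Mb, 1.02 with ends of 2 Mb, 3.66 without matching and 0.459 at high ends. The causes were not tested. DAC calls were 0 throughout. The comparisons with 1 to 10 Mb, with regions of both tables and without the place on chromosome 7 were chosen after seeing the data. The DAC table had 18.1 normalized reads in its median region, against 83.9 for TDCIPP. This may limit what it can show, though depth per library is unknown.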

Other observations

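At end regions present in both tables, the DMSO level was as a rule higher in the TDCIPP table, by a median of 2.04 on the log2 scale over 1651 pairs, by the authors' deposited tables. Over the other pairs of the same chromosomes the median was 2.3, so the gap was not particular to ends. At end pairs the differences ran from -3.91 to 5.22. In 26 end pairs the order was the other way, and no such count is given for pairs farther in. Among these 26 pairs the widest gap, -3.91, was at the high end of chromosome 24 (42143266 to 42146469), the region with the most negative DAC fold. Its DMSO level was 8.45 in the DAC table, against 4.54 at its partner of 1013 bp in the TDCIPP table, while with DAC it was 5.66, by the authors' deposited tables. The DAC region is 3204 bp wide, and the part of width in the gap was not tested. On chromosome 17 at 516064 to 518403 the DMSO level was likewise 6.51 beside DAC and 3.69 beside TDCIPP, with 5.64 after DAC, by the authors' deposited tables. Here too the widths differed, with 2340 bp for the DAC region and 1193 bp for its partner. On chromosome 21 a DAC region of 37804 bp (45450213 to 45488016) had 9.70 in DMSO, against 6.66 at a partner of 4684 bp. Whether single libraries carried these levels was not tested, since the tables give group means.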
